A study of Mus musculus with 568 samples.

Results

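The genes described here are 10 regulators of cell cycle entry and progression: the D-type cyclin genes *Ccnd1*, *Ccnd2* and *Ccnd3*, the E-type cyclin genes *Ccne1* and *Ccne2*, the cyclin genes *Ccna1* and *Ccnb3* that are linked to meiosis, and the cyclin-dependent kinase (CDK) inhibitor genes *Cdkn1a*, *Cdkn1b* and *Cdkn2a*. They are 10 of the 16335 genes in the bulk expression table and 10 of the 15718 in the single-cell table. They were chosen by name, with measured values of these data already in view. Their levels and differences are therefore given as a description. Where a fit over all genes called any of the 10, the calls stand beside the share of all genes called and are not evidence about the 10.

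The XRep cells of the study are a hybrid female mouse embryonic stem cell (ESC) line, EL16.7 TST, with 1 X chromosome of 129S1/SvImJ origin (Xmus) and 1 of CAST/EiJ origin (Xcas). Xmus carries a truncated *Tsix*, so that it is the one silenced on differentiation, and a GFP reporter (XGFP), and Xcas carries tdTomato. All groups derive from this line and so share rtTA at *Rosa26* and doxycycline-responsive transgenes of *Prdm14*, *Blimp1* and *Tfap2c*, which makes the germ cells a model driven by 3 added factors in 1 parental line. Bulk RNA was read in 16 libraries, 4 of each group: ESCs in serum with LIF and epiblast-like cells (EpiLCs) after 4 days, both unsorted, and primordial germ cell-like cells (PGCLCs) after 5 days with doxycycline, sorted as SSEA1+ CD61+ and as XGFP+ or XGFP-. Single cells came from reconstituted ovaries (rOvaries), in which sorted PGCLCs were kept for 6 days with somatic cells of E13.5 female gonads. 1 sorted population (XGFP+ constitutive) grew from XGFP+ PGCLCs and the other 3 (XGFPhigh, XGFPintermediate, XGFPlow) from XGFP- PGCLCs, and 24 single ESCs were read beside them.

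Bulk libraries held 29.8 to 46.5 M reads on genes. Of the label markers, 4 of 4 for ESCs, 4 of 4 for EpiLCs and 6 of 7 for PGCLCs were above every library of the other groups, the exception being *Prdm14*. The 7 PGCLC markers include *Prdm14*, *Prdm1* (also called *Blimp1*) and *Tfap2c*, the genes of the doxycycline-responsive transgenes. Their levels in PGCLCs cannot separate cell type from induction. The labels number the 4 libraries of a group without naming a clone or culture, so the spread between them may be partly technical. The study's text describes clones that were each sequenced in technical replicate, while its legends call every library a biological replicate. If libraries share a clone, the SDs, SEs and FDRs given here for 4 libraries a group may be too small. In single cells, 462 of 518 rOvary wells and 24 of 24 ESC wells were kept, 10 empty wells held no read of any of the 10 genes, and no well name recurred. Median reads per kept cell were 354149 in the XGFP+ constitutive population, 636623 to 645474.5 in the other 3 and 1103780 in ESCs. All 88 constitutive cells carry lane 2 in their names, against 45 of the 374 cells of the other 3 populations. Constitutive cells can therefore be set beside the others within a lane only in lane 2, over 14 XGFPhigh, 16 XGFPintermediate and 15 XGFPlow cells. No ESC was assigned lane 2 or 3, so ESC levels cannot be set beside rOvary levels within a lane.

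A dividing cell passes the restriction point of G1 when D-type cyclins, with CDK4 or CDK6, and then E-type cyclins, with CDK2, phosphorylate the retinoblastoma protein and release E2F transcription factors. Mouse ESCs cycle quickly with a short G1, and primordial germ cells divide by mitosis until, in a female gonad, they enter meiotic prophase. The inhibitors p21 (*Cdkn1a*) and p27 (*Cdkn1b*) bind cyclin-CDK complexes, p16INK4a (from *Cdkn2a*) binds CDK4 and CDK6, and p19ARF, from the same locus, acts on MDM2 and so on p53.

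Start site regions of 3 of the genes are printed because they belong to the genes with the most distinct patterns below: *Ccnb3*, which was almost absent from ESCs and very high in a few rOvary cells, *Ccne1*, the E-type cyclin that was lowest in XGFP- PGCLCs, and *Cdkn1a*, whose level went with p53 target genes in single cells. RefSeq sequences (GRCm38.p6) covered 7 of the 10 genes, and *Ccnd1*, *Ccnd2* and *Ccne2* are named only. Each stretch ends at the base before the annotated gene, on the gene's own strand, and lies at chrX:7041620-7041739 (minus strand) for *Ccnb3*, chr7:38107535-38107610 (minus strand) for *Ccne1* and chr17:29090859-29090975 (plus strand) for *Cdkn1a*. Capitals mark CG dinucleotides in the first and second sequences, and in the third the letters ACATGT, repeated after a spacer of 4 bases.
Ccnb3: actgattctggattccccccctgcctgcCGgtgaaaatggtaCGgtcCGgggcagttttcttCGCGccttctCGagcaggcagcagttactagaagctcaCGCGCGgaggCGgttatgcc
Ccne1: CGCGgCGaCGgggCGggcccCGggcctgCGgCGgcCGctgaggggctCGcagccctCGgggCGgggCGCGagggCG
Cdkn1a: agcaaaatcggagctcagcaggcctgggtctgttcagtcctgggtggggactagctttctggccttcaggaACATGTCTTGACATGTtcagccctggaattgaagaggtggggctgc

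The window of 250 bases before the start held 34 CG dinucleotides for *Ccne1*, with 96.47% of 32851 promoters holding fewer, and 11 for *Ccnb3*, beside a median of 6 over all promoters. The distal *Cdkn1a* window held 2. This repeat of ACATGT was searched on both strands after its letters had been seen in that window, overlaps no other motif searched and occurs in 4 of 32851 promoters (0.0122%). The E2F letters TTTCCCGC or TTTGGCGC, found in 1.3% of promoters on either strand, were met in the upstream *Cdkn2a* promoter and in no other promoter of the 7 genes searched, and these matches describe the letters alone.

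In the 4 bulk groups the make-up of the D-type cyclins, which link growth signals to the cell cycle, went from 2 genes in ESCs to mostly *Ccnd1* in EpiLCs and mostly *Ccnd3* in PGCLCs. *Ccnd1* (chr7:144929931-144939925, minus strand) had a normalized count, that is a read count divided by the library's size factor, of 3234 ± 385 (SD, n = 4) in ESCs and 7778 ± 432 (n = 4) in EpiLCs. In XGFP+ PGCLCs the 4 libraries held 230, 262, 84.2 and 122.7, and in XGFP- PGCLCs 38.1, 25.4, 21.2 and 20.6. The groups of *Ccnd1* did not overlap at any step, and within XGFP+ PGCLCs libraries 1 and 2 lay above 3 and 4. On the scale log2(normalized count + 1), EpiLCs were 1.27 above ESCs (SE 0.26), XGFP+ PGCLCs were 5.61 below EpiLCs (SE 0.26), and XGFP- PGCLCs lay a further 2.58 below XGFP+ PGCLCs (SE 0.26).

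*Ccnd2* (chr6:127125162-127152193, minus strand) was near the floor outside EpiLCs. Its 4 EpiLC libraries held normalized counts of 219, 265, 298 and 419, against a mean of 4.02 in ESCs, where a library had 2 to 7 reads. XGFP+ PGCLCs stood at 5.91 ± 2.34 (SD, n = 4), overlapping ESCs, and XGFP- PGCLCs at 32.9, 30.5, 14.4 and 38.1, all above the XGFP+ libraries. The 2 PGCLC groups thus stood in opposite order for *Ccnd1* and *Ccnd2*, with *Ccnd2* higher in XGFP- PGCLCs by 2.10 on the log2 scale (SE 0.36).

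*Ccnd3* (chr17:47505051-47599691, plus strand) ran against the other D-type genes in EpiLCs. Its normalized counts were 4225, 4437, 4214 and 4643 in ESCs and 1606, 1547, 1411 and 1517 in EpiLCs. They were 3765, 3661, 3824 and 3508 in XGFP+ PGCLCs and 4542, 4390, 4504 and 4119 in XGFP- PGCLCs, so that XGFP- PGCLCs and ESCs overlapped. EpiLCs were lower than ESCs by 1.53 (log2, SE 0.05), and XGFP+ PGCLCs were 1.28 above EpiLCs (SE 0.05).

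Per kb of exon, the only scale on which genes are compared with each other here, *Ccnd1* made up 57.8% ± 1.73 (SD, n = 4) of the D-type sum in ESCs and 88.9% ± 0.240 in EpiLCs. It made up 8.0% ± 3.60 in XGFP+ and 1.09% ± 0.303 in XGFP- PGCLCs. *Ccnd3* supplied 91.9% ± 3.64 and 98.3% ± 0.423 of the sum in the 2 PGCLC groups. The D-type sum itself was 1186 ± 105 normalized counts per kb in ESCs, 1857 ± 100.9 in EpiLCs (n = 4 each), and it was 458 ± 23.8 for the XGFP+ and 509 ± 22.3 for the XGFP- PGCLCs. PGCLCs thus held a smaller pool of D-type cyclin RNA than ESCs, nearly all of it *Ccnd3*. The length used is that of all annotated exons of a gene merged, 8.775 kb for *Ccnd3* and 4.709 kb for *Ccnd1*. The shares and the size of the sums depend on that choice. In bulk RNA, fewer cells with a gene and less RNA per cell cannot be told apart.

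**Figure D1:**
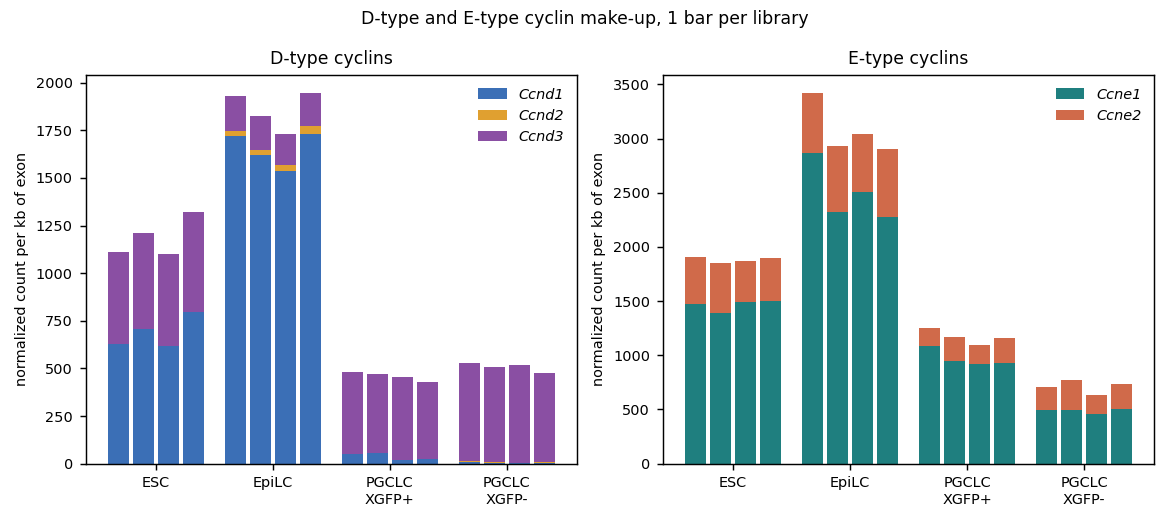
Normalized counts per kb of exon (y axis, from 0) of the D-type cyclins (left) and E-type cyclins (right), stacked by gene, with 1 bar per library and 4 libraries per bulk group. *Ccnd3* fills most of every PGCLC bar on the left, and on the right the XGFP- bars are the shortest.

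The E-type cyclins, which bring CDK2 to the start of DNA replication, were highest in EpiLCs. *Ccne1* (chr7:38097984-38107534, minus strand) stood at 3921, 3697, 3960 and 4005 in the ESC libraries (normalized counts) and at 7628, 6186, 6671 and 6071 in the EpiLC libraries. XGFP+ PGCLCs held 2892, 2525, 2448 and 2474, and XGFP- PGCLCs 1307, 1308, 1231 and 1333. None of the 4 groups overlapped, and XGFP- PGCLCs lay below XGFP+ PGCLCs by 0.99 (log2, SE 0.07), which is a ratio of group means of 0.501. *Ccne2* (chr4:11191351-11204779, plus strand) did not separate the PGCLC groups: its means were 691 ± 102.96 (SD, n = 4) for the XGFP+ and 781 ± 155 for the XGFP- libraries, which overlapped, after 1465 ± 135.1 at the ESC stage and 2027 ± 151 at the EpiLC stage. Per kb, *Ccne1* exceeded *Ccne2* by a ratio of 5.02 ± 1.09 in XGFP+ PGCLCs and 2.24 ± 0.393 in XGFP- PGCLCs.

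*Ccnb3* and *Ccna1* were low in every bulk group. *Ccnb3* (chrX:6979652-7041619, minus strand) encodes cyclin B3, which acts in meiosis and in females is known for the metaphase-to-anaphase step of the oocyte. It had 0, 0, 0 and 1 read in the 4 ESC libraries. EpiLCs held the most, with normalized counts of 53.1, 47.5, 29.8 and 25.7. XGFP+ PGCLCs had 6.50 ± 3.12 (SD, n = 4) and XGFP- PGCLCs 6.12 ± 2.17, with overlapping libraries and a difference of 0.02 on the log2 scale against an SE of 0.42. As an X-linked gene *Ccnb3* has an allelic ratio, the Xmus share of its allelic reads, in the authors' table: 0 in all ESC libraries, 0, 0, 0.0357 and 0.0714 across EpiLC libraries, 0.8, 1, 0 and 0 across XGFP+ and 0, 0.2, 0 and 0 across XGFP- PGCLC libraries. A ratio of 0 also stands for no allelic reads, so at these levels the values carry little information on the allele.

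*Ccna1* (chr3:55045469-55055501, minus strand), a cyclin gene known for male meiosis, averaged a normalized count of 5.82 over the ESC and 10.2 over the EpiLC libraries, which overlapped. XGFP+ PGCLCs held 22.02 ± 4.50 (SD, n = 4) and XGFP- PGCLCs 34.3 ± 4.63, above all ESC and EpiLC libraries. XGFP+ PGCLCs were thus 1.78 above ESCs on the log2 scale (SE 0.28), from a very low start.

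Among the inhibitors, PGCLCs had less *Cdkn1a* and, in the XGFP- group, more *Cdkn1b*. *Cdkn1a* (chr17:29090976-29100727, plus strand) stood at 2227, 2480, 2170 and 1990 in the ESC libraries (normalized counts), overlapping the EpiLC values of 1608, 1922, 1642 and 2116. XGFP+ PGCLCs held 630, 682, 506 and 585, and XGFP- PGCLCs 571, 524, 528 and 545, again overlapping. The PGCLC groups were below EpiLCs by 1.60 and 1.74 on the log2 scale (SE 0.10 each). *Cdkn1b* (chr6:134920401-134925513, plus strand) was lowest in EpiLCs, at 859, 851, 699 and 852, and stood at 1303 ± 82.6 (SD, n = 4) in ESCs and 1227 ± 101.1 in XGFP+ PGCLCs, which overlapped. The 4 XGFP- PGCLC libraries held 1625, 1679, 1682 and 1847, above every other library, and exceeded XGFP+ PGCLCs by 0.48 (log2, SE 0.08). The ratio of *Cdkn1b* to *Cdkn1a* per kb was 0.461 ± 0.0454 in ESCs and 0.352 ± 0.0451 in EpiLCs, and it reached 1.63 ± 0.338 (XGFP+) and 2.46 ± 0.176 (XGFP-) among PGCLCs.

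*Cdkn2a* (chr4:89274471-89294653, minus strand) was low throughout, and its counts do not separate p16INK4a from p19ARF. Normalized counts were 155 ± 41.4 (SD, n = 4) in ESCs, 73.3 ± 8.41 in EpiLCs and 94.3 ± 10.6 in XGFP+ PGCLCs. XGFP- PGCLCs were at 16.5, 43.7, 24.0 and 57.7, below every XGFP+ library and widely spread. The difference between the PGCLC groups was -1.53 (log2, SE 0.29).

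**Figure D2:**
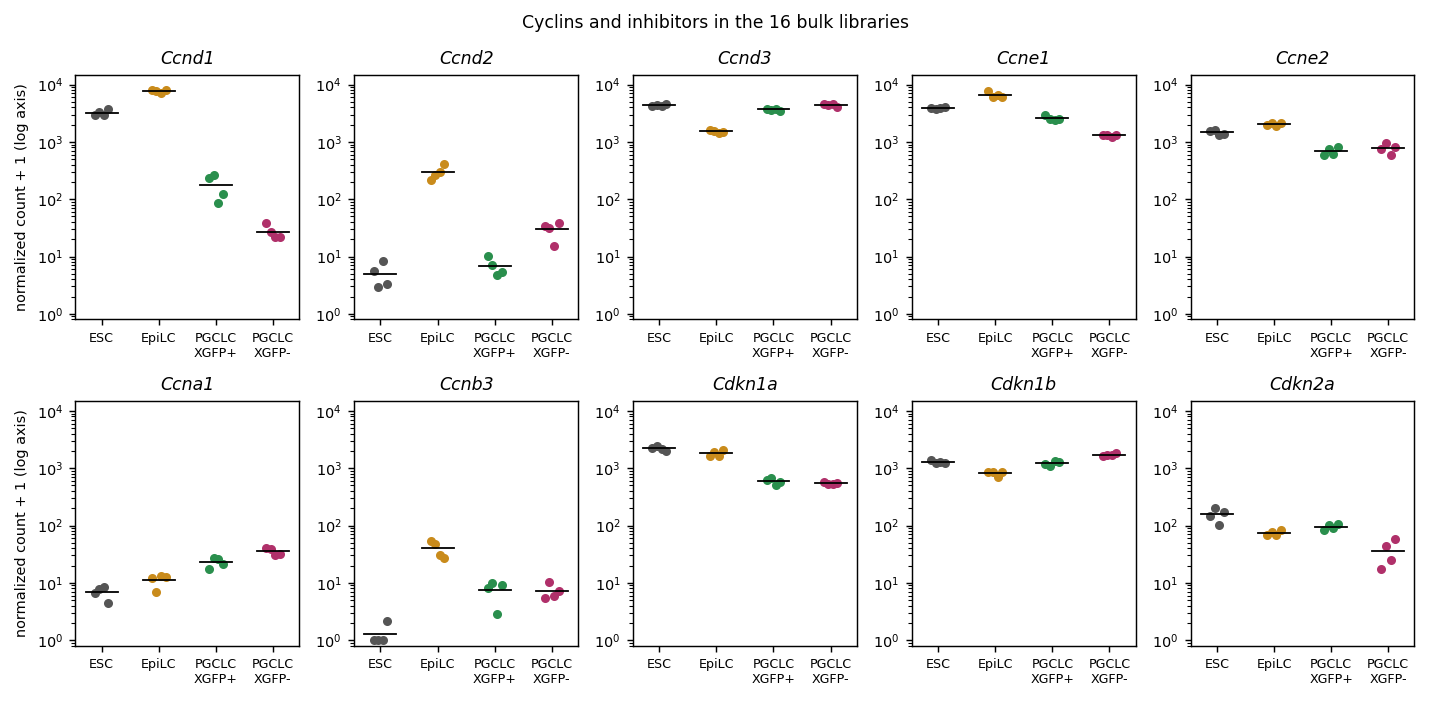
Normalized count + 1 (y axis, log scale) of each of the 10 genes in the 4 bulk groups, with 1 point per library and a line at the group mean. *Ccnd1* spans the widest range of any panel among the abundant genes, from 7778 on average in EpiLCs to 26.3 in XGFP- PGCLCs, and the *Ccnb3* panel peaks in EpiLCs.

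Across all 16281 genes tested (limma-trend with Benjamini-Hochberg adjustment, FDR below 0.001), many genes differed at each step, and the counts of the 10 genes are set beside that background with nothing read from them. From ESCs to EpiLCs, 4 of the 10 were called higher (24.9% of all genes) and 2 lower (22.9%). From EpiLCs to XGFP+ PGCLCs, 2 were called higher (27.8%) and 6 lower (29.5%), and from EpiLCs to XGFP- PGCLCs, 3 higher (29.9%) and 6 lower (31.9%). Between XGFP- and XGFP+ PGCLCs, *Ccnd2*, *Ccnd3* and *Cdkn1b* were called higher (11.3%) and *Ccnd1*, *Ccne1* and *Cdkn2a* lower (12.5%) in XGFP- cells. Between XGFP+ PGCLCs and ESCs, *Ccnb3* and *Ccna1* were called higher (25%) and 5 genes lower (24.9%). The comparisons share libraries and are not independent of each other. With the replicate number as a block, which pairs the PGCLC libraries, 5 of the 10 were called between the PGCLC groups and the *Ccnd3* call was lost (log2 difference 0.25). Without the block it was lost on leaving out any 1 of 12 libraries, among them 7 of the PGCLC libraries, with a log2 difference of 0.23 to 0.27, and *Cdkn2a* was lost on leaving out XGFP+ library 2 or 4 or XGFP- library 3, where its log2 difference was -1.49, -1.49 and -1.41. Leaving out EpiLC library 1 or 4 or ESC library 1 or 3 ended the call for *Ccnd1* between ESCs and EpiLCs, with a log2 difference of 1.22 to 1.25. Between XGFP+ PGCLCs and ESCs the *Ccnd3* call ended without XGFP+ library 1, 2 or 4 or ESC library 2 or 4 (-0.26 to -0.22).

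**Figure D3:**
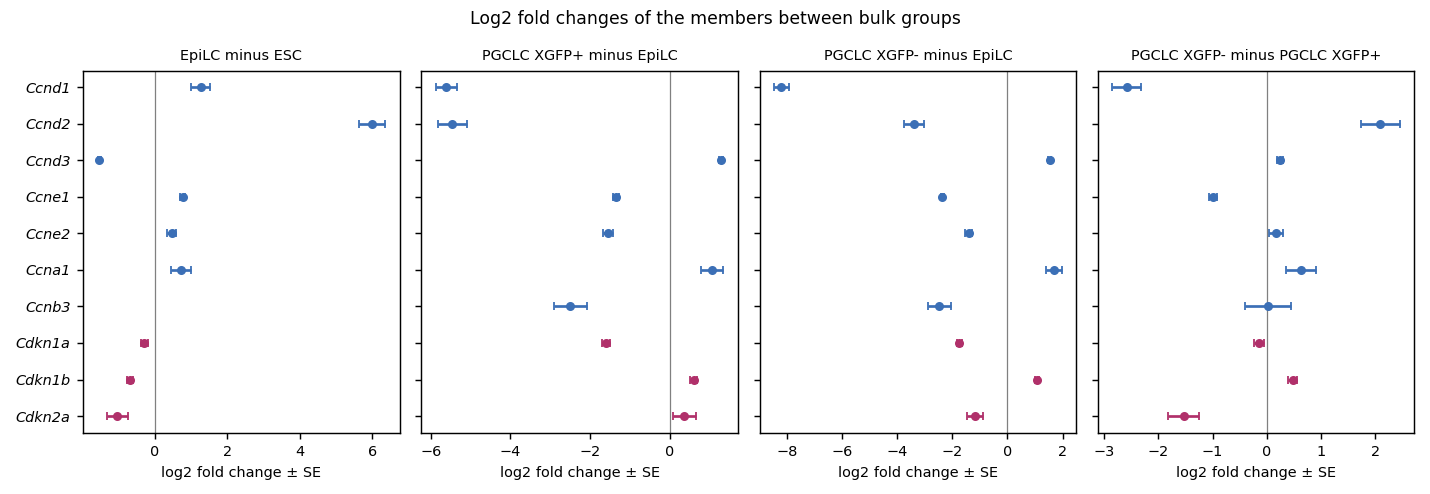
Log2 fold change on the log2(normalized count + 1) scale (x axis) of the 10 genes between bulk groups, 1 panel per comparison shown. Bars are 1 standard error from the limma-trend model over all 16 libraries. *Ccnb3* is left out of the panel of EpiLCs against ESCs, and XGFP+ PGCLCs against ESCs have no panel. In the panel of XGFP- against XGFP+ PGCLCs, *Ccnd1* at -2.58 and *Ccnd2* at 2.10 lie on opposite sides of 0.

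The partners of these genes were followed in a list of 67 other cell cycle control genes, all of which were tested. From ESCs to EpiLCs 23 rose (24.9% of all genes did) and 11 fell (22.9%), with a median log2 change of 0.10 beside 0.01 over all genes. The atypical cyclin gene *Ccno* (3.97, SE 0.31), the retinoblastoma gene *Rb1* (2.15, SE 0.15) and the repressor *E2f7* (2.14, SE 0.08) rose most. *E2f2* (-1.25, SE 0.09), *Cdk2* (-1.06, SE 0.06) and *Mdm4* (-1.06, SE 0.08), which encodes an inhibitor of p53, fell most. The largest FDR of these 6 genes was 2.24e-09 (limma).

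From EpiLCs to XGFP+ PGCLCs 16 of the 67 rose (27.8% of all genes) and 24 fell (29.5%), with a median of -0.09 beside 0.00 over all genes, and from EpiLCs to XGFP- PGCLCs 21 rose (29.9%) and 24 fell (31.9%), with a median of -0.10 beside -0.03. All 5 CDK genes of the list fell in XGFP+ PGCLCs and 4 of 5 in XGFP- PGCLCs. Of 14 S phase genes counted beside the 67, 10 and 9 fell, beside the 29.5% and 31.9% of all genes that fell in these comparisons. *Ccng1*, a target gene of p53, went from a normalized count of 32362 ± 4933 (SD, n = 4) in EpiLCs to 4829 ± 219 in XGFP+ and 3278 ± 321 in XGFP- PGCLCs, the third-largest decrease of the list in both comparisons. *Mdm4* rose by 1.59 and 1.63 (SE 0.08 each) and *E2f2* by 1.55 and 1.68 (SE 0.09 each). *Pkmyt1* (1.46, SE 0.07), whose kinase holds CDK1 inactive, was the other gene of the top 3 in XGFP+ PGCLCs, and *Fbxo31* (1.69, SE 0.08), whose product targets cyclin D1 for degradation, in XGFP- PGCLCs. *Ccno* fell by 3.13 and 3.46 (SE 0.31 each), *Ccnjl* by 3.17 in XGFP+ (SE 0.24) and *Myc* by 3.32 in XGFP- PGCLCs (SE 0.27), and the largest FDR of the 12 increases and decreases named was 4.26e-08 (limma).

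Between the PGCLC groups 11 of 67 were higher (11.3% of all genes) and 7 lower (12.5%) in XGFP- cells, with a median of 0.03 beside 0.01 over all genes. *Cdk6*, which encodes a kinase partner of the D-type cyclins, rose most, at 1033 ± 140 against 435 ± 38.3 normalized counts (SD, n = 4 each; log2 1.24, SE 0.12), followed by *Ccnjl* (1.13, SE 0.24) and *Foxo1* (0.69, SE 0.08). The CDK4 and CDK6 inhibitor gene *Cdkn2b*, the neighbour of *Cdkn2a*, fell from 30.9 ± 5.34 to 10.4 ± 2.75 (log2 -1.49, SE 0.22), and the pocket protein gene *Rbl2* (-0.92, SE 0.09) and *Ccng1* (-0.56, SE 0.11) were the next lower. The largest FDR of these 6 was 0.000685 (limma). By limma, 0 of 14 S phase and 0 of 15 G2 and mitosis genes were called in this comparison, where 18 of the 67 were. In limma 5 and 4 of them had an unadjusted p under 0.05. At the same FDR threshold edgeR called 1 and 0 of them, and DESeq2 2 and 1. XGFP+ PGCLCs against ESCs gave 17 genes higher (25% of all genes) and 13 lower (24.9%) of 67 (median 0.01 beside 0.00), led by *Rb1* (2.06, SE 0.15), *Foxo1* (1.57, SE 0.08) and *E2f8* (1.42, SE 0.10) among the higher and *Ccnjl* (-1.87, SE 0.24), *Cdk2* (-1.84, SE 0.06) and *Myc* (-1.33, SE 0.27) among the lower. The largest FDR of these 6 was 0.000226 (limma).

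In the rOvary the populations differed in which cyclin genes their cells carried, with *Ccnb3* and *Ccne2*, over both lanes together, highest in XGFPintermediate cells and *Ccne1* in XGFPhigh cells. Each sorted population counts as 1 sample, since the labels name no culture, so no difference between populations was tested and intervals cover counting error only. Levels are CPM, that is read counts scaled to a common total for every cell, averaged over kept cells.

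*Ccnb3* had a read in 0 of 24 ESCs, which allows a share of up to 12.5% by the limit of 3 counts and 14.2% by the exact Clopper-Pearson interval. It had a read in 49 XGFPintermediate cells (38.3% of those kept, exact Clopper-Pearson 95% interval 29.8 to 47.3%). In the other 3 populations the share was 8 of 88 constitutive (9.09%, 4.01 to 17.1%), 12 of 125 XGFPhigh (9.6%, 5.06 to 16.2%) and 12 XGFPlow cells (9.92%, 5.23 to 16.7%). Mean levels were 7.80, 115.2, 175 and 15.2 CPM in constitutive, XGFPhigh, XGFPintermediate and XGFPlow cells, while the median cell was at 0 in each. A few cells set these means: the highest XGFPhigh cell held 3891 CPM and the highest XGFPintermediate cell 3784 CPM. The lane moved with the level, as XGFPintermediate cells averaged 199 CPM in lane 3 and 2.32 CPM in lane 2 (16 cells), XGFPhigh cells 128.01 and 13.9 CPM, and XGFPlow cells 16.7 and 4.46 CPM. The part of the lane in these values was not tested.

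The E-type genes parted company in the same cells. *Ccne2* averaged 42.8 CPM in constitutive, 75.3 in XGFPhigh, 161 in XGFPintermediate and 73.2 in XGFPlow cells, against 7.40 in ESCs. In lane 2 alone the XGFPintermediate mean of *Ccne2* was 31.4 CPM and below the XGFPhigh mean of 75.6 CPM. *Ccne1* was instead lowest in XGFPintermediate cells, with 132.8, 165, 70.1 and 93.8 CPM in the 4 populations and 200 in ESCs. It was lower in XGFPintermediate than in XGFPhigh cells in either lane, at 44.9 against 156 CPM in lane 2 and 73.7 against 166 CPM in lane 3.

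Of the D-type genes, *Ccnd3* was the one most cells carried, with a read in 98.9% of constitutive, 96.8% of XGFPhigh, 86.7% of XGFPintermediate and 89.3% of XGFPlow cells. It averaged 125, 122.6, 96.3 and 141.7 CPM in that order, and per kb it was 79.97%, 75.3%, 71.3% and 67.5% of the D-type mean. *Ccnd1* averaged 15.7 and 16.6 CPM in constitutive and XGFPhigh cells, 4.81 in XGFPintermediate and 10.97 in XGFPlow cells, and 43.96 in ESCs. Within lane 2 the XGFPhigh, XGFPintermediate and XGFPlow means of *Ccnd3* were 50.96, 71.5 and 66.6 CPM, all below the constitutive mean, and those of *Ccnd1* were 15.5, 11.9 and 0.947 CPM, so that XGFPlow and not XGFPintermediate cells were lowest there. *Ccnd2* averaged 2.15, 9.93, 31.9 and 51.1 CPM in the 4 populations and was concentrated in cells with little *Dazl*, a germ cell gene. In 61 kept cells with a natural-log normalized *Dazl* of 1 or less, *Ccnd2* averaged 133.5 CPM, against 8.86 CPM in the 401 cells above it. A few cells set these means, as the median was 0 CPM in both sets and the highest cells held 1964 and 343 CPM. A read of *Ccnd2* was seen in 39.3% of the 61 cells and 18.7% of the 401. Without its highest cell the XGFPlow mean was 35.2 CPM. The summed level of 16 markers of gonadal supporting, mesenchymal, endothelial and blood cells had a median of 122.8 CPM (range 0 to 11575) in the 61 cells and 40.3 CPM (0 to 449) in the 401. Of the 61 cells, 12 were constitutive, 7 XGFPhigh, 12 XGFPintermediate and 30 XGFPlow, and with the 401 cells alone the 4 population means of *Ccnd2* were 1.51, 9.76, 12.6 and 9.06 CPM. Within lane 2, *Ccnd2* averaged 7.63, 73.8 and 23.8 CPM in XGFPhigh, XGFPintermediate and XGFPlow cells.

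*Cdkn1a*, the p53-responsive inhibitor gene, was detected in most rOvary cells, with means of 138.9, 66.9, 74.6 and 97.5 CPM in constitutive, XGFPhigh, XGFPintermediate and XGFPlow cells and 156 CPM in ESCs. The constitutive mean rests in part on 1 cell at 3592 CPM and was 99.3 CPM without it. Within lane 2 the other 3 means were 55.1, 139.6 and 98.1 CPM, with the XGFPintermediate mean next to the constitutive one. *Cdkn1b* had a read in 24.0 to 30.7% of the cells of a population and *Cdkn2a* in 21.6 to 28%, with means of 5.68 CPM or less, and *Cdkn1b* was in single ESCs far below its bulk level. *Ccna1* had a read in 4.55 to 7.81%, at 2.83 CPM or less. At these levels no order among populations was detectable for the last 3 genes.

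**Figure D4:**
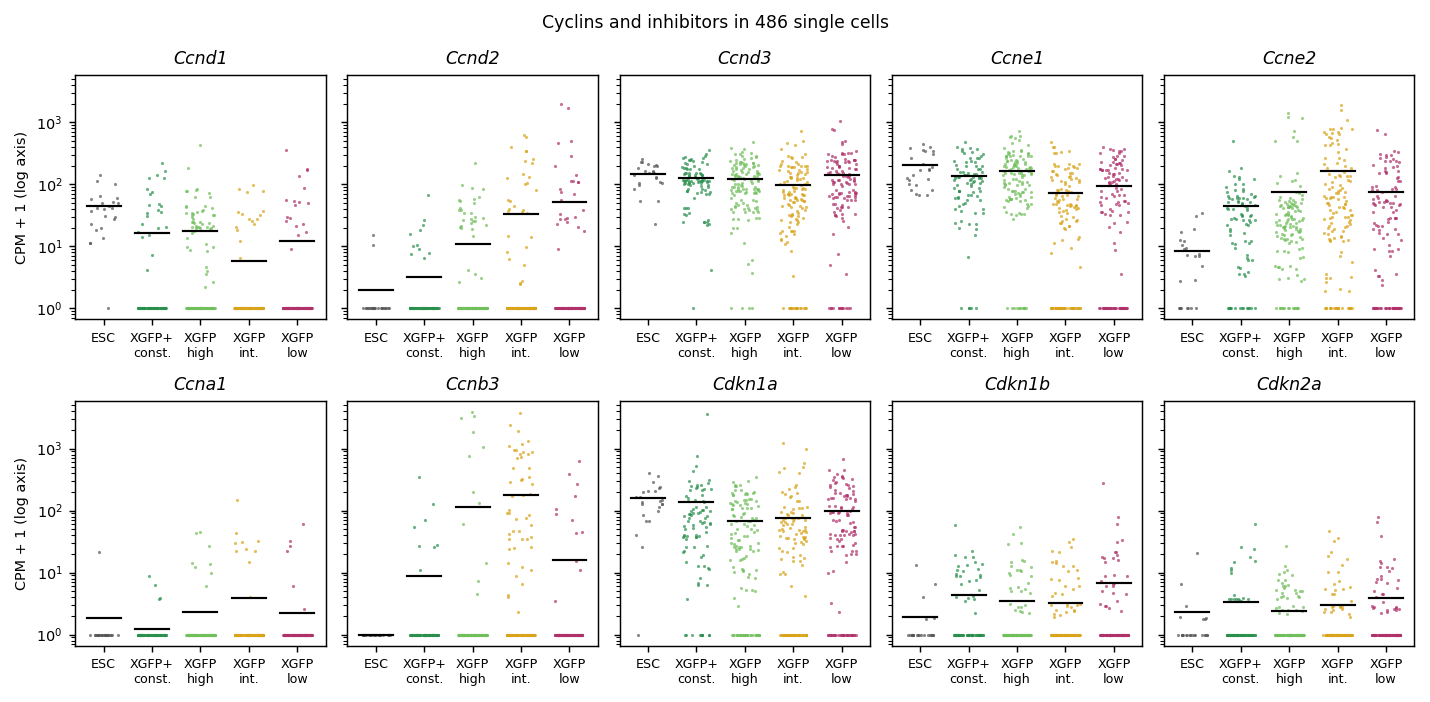
CPM + 1 (y axis, log scale) of each of the 10 genes in the kept single cells, 1 point per cell and a line at the mean + 1, grouped as ESCs and the 4 sorted rOvary populations. Most cells lie at 0 for *Ccnb3*, with a group of XGFPintermediate and a few XGFPhigh cells reaching above 1000 CPM.

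The 401 rOvary cells with *Dazl* above 1 were clustered on 2000 variable genes from which the 10 genes and the cell cycle lists had been removed, which gave 5 clusters of 57 cells or more. Cluster 5 (57 cells) was meiotic germ cell-like: its leading genes included *Sycp3* and *Sycp2*, which encode parts of the synaptonemal complex, *Rad51ap2* and *Fbxo47*, and 10 of the 11 meiotic markers in the table were highest in it. It held 35 XGFPintermediate, 13 XGFPlow, 7 XGFPhigh and 2 constitutive cells. Clusters 1, 3 and 4 all carried mitotic germ cell markers, with summed medians of 2186.5, 1868 and 3020 CPM, against 683 CPM in cluster 2. Of the 10 markers, 5 were highest in cluster 3 and 5 in cluster 4 (60 cells), with *Utf1* among the 10 leading genes of cluster 4. Clusters 1, 2 and 3 were led by *Lefty1*, *Cyp26a1* and *Upp1*, and clusters 1 to 4 stay unnamed. The values of the 10 genes by cluster are a description, since the cells were grouped by the same RNA.

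*Ccnb3* headed the leading genes of cluster 5. It had been kept out of the clustering, but it was chosen with values of these data in view. Its rank is therefore a description and no separate evidence. *Ccnb3* averaged 668 CPM in cluster 5 with a read in 50 of 57 cells, against 3.63 CPM and 31 of 344 in the other clusters. Cluster 5 held 12.3% of the 462 kept rOvary cells and 96.8% of their summed *Ccnb3* CPM, and 37 of the 40 cells above 100 CPM. Reads were seen in 0 of the 61 cells with *Dazl* at 1 or less, which allows a share of up to 4.92%. Within cluster 5, *Ccnb3* averaged 2027 CPM in the 7 XGFPhigh cells, 626 in the 35 XGFPintermediate and 118.3 in the 13 XGFPlow cells. The 2 constitutive cells averaged 202 CPM. Ranges in XGFPhigh, XGFPintermediate and XGFPlow cells overlapped, at 195 to 3891, 0 to 3784 and 0 to 633 CPM. The order of the means by gate was not tested. Of the cells of cluster 5, 52 were of lane 3 (720 CPM) and 5 of lane 2 (125 CPM).

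*Ccne2* was the other cyclin gene that set cluster 5 apart. It had a read in 57 of 57 cells at a mean of 494 CPM, against 38.7 CPM in the other clusters, and 66.1% of its summed CPM lay in cluster 5. Lower there were *Ccne1*, at 43.5 against 131.6 CPM, and *Ccnd3*, at 30.3 against 126.6 CPM with a read in 35 of 57 cells. *Cdkn1a* was lower too, at 8.56 against 96.2 CPM with a read in 16 of 57. The E-type genes *Ccne1* and *Ccne2* thus lay on opposite sides in these cells. At low levels, *Cdkn1b* averaged 0.452 CPM in cluster 5 against 2.82 CPM in the other clusters, and *Ccnd1* 6.80 against 10.1 CPM. *Cdkn2a* was higher in cluster 5, at 5.78 against 1.73 CPM. In cluster 4, *Ccnd1* had a read in 0 of 60 cells, which allows a share of up to 5%, and *Cdkn1a* averaged 135.3 CPM.

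**Figure D5:**
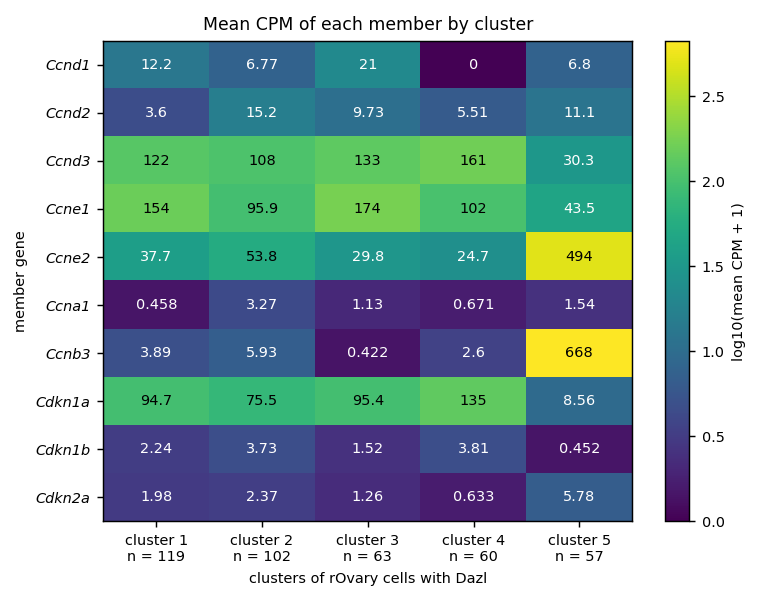
Mean CPM of each of the 10 genes (rows) in the 5 clusters of 401 rOvary cells (columns), printed in each cell and coloured by log10(mean CPM + 1). The column of cluster 5 holds the highest *Ccnb3* and *Ccne2* values, 668 and 494 CPM, and the lowest *Ccnd3* and *Cdkn1a* values.

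Across the 462 kept rOvary cells, the genes whose CPM ranked most like *Ccnb3* among 11822 genes were *Rad51ap2* (Spearman rho 0.69), *Gm4969*, *BC051142*, *Lypd4*, *Figla*, *Dmrtc2*, *Spata22*, *Tc2n*, *Pparg* and *Zcwpw2* (0.60). *Figla* encodes an oocyte transcription factor and *Spata22* a protein needed for meiotic recombination. For *Rad51ap2*, rho was 0.58, 0.65, 0.77 and 0.59 within the constitutive, XGFPhigh, XGFPintermediate and XGFPlow cells. In the same order it was 0.22, 0.64, 0.76 and 0.37 for *Figla* and 0.32, 0.50, 0.79 and 0.43 for *Spata22*. The lowest value within a population was 0.13, for *Zcwpw2* in constitutive cells. These cells share library chemistry and differ in depth, and rho between *Ccnb3* and the reads of a cell was 0.08. *Ccnb3* ranked against the mitotic cyclin genes *Ccnb1* (-0.26) and *Ccna2* (-0.24), and *Ccne2* went with *Ccnb3* (0.44).

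The genes most like the other members were looked up after their values were seen. *Ccne1* ranked with genes of DNA replication, led by *Rrm2* (0.58), *Mcm4* (0.50) and *Chaf1b* (0.50), and had a rho of 0.55 with the summed S phase list, against 0.20 for *Ccne2* and -0.16 for *Ccnb3*. *Cdkn1a* ranked with *Ccng1* (0.48), *Eda2r* (0.45) and *Bax* (0.42), all known target genes of p53. *Ccnd2* had weak values, up to 0.34 for *Zfp36l1* and *Mmp14*.

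ESCs were read in both assays, which gives a check of the levels. Among 7599 genes above 10 CPM in bulk ESCs, the median single-cell level was 0.45 lower on the log2 scale. *Cdkn1b* was at 33.99 ± 2.09 CPM in bulk (SD, n = 4) and at 0.936 CPM in single cells, a log2 difference of -4.18 with 1.75% of genes further down. *Ccne2* was at 38.3 ± 3.99 against 7.40 CPM and *Cdkn1a* at 57.9 ± 6.42 against 156 CPM. Bulk libraries were stranded total RNA and the single-cell libraries were not stranded, and 6 of the 10 genes (*Ccnd1*, *Ccnd2*, *Ccnd3*, *Ccne2*, *Ccna1* and *Cdkn1a*) share exon sequence with a gene on the other strand, whose reads the single-cell counts cannot separate.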

How the data were processed

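Per the labels and the study's methods, bulk total RNA reads were aligned by the authors with STAR to mm10 with strain SNPs masked and counted with HTSeq 0.6.1. The deposited bulk signal is the count divided by a DESeq2 1.16 size factor per library. The deposited allelic values are a fraction, the Xmus share of allelic reads, and 4 columns of another study beside them were not used. Single-cell values are deposited read counts of SMART-seq libraries.

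The 10 genes and all lists were chosen with earlier results of these data known. Named genes were all 10, the 3 called list genes with the largest increase and decrease per comparison, the 10 genes most like *Ccnb3*, and markers. Whole reads were recovered from the bulk steps of all 16 libraries (100% of values within 0.01 of whole). limma 3.58.1 (limma-trend, R 4.3.3) was fitted to log2(normalized count + 1) for 16281 genes with a mean above 10, over all 16 libraries, at FDR below 0.001. edgeR 4.0.16 and DESeq2 1.42.0 ran as alternatives on counts, as did other pseudocounts, quantile normalization, the compared groups alone, leaving out each library and a replicate block. The scripts were first tested on simulated data. Deviations of XGFP+ and XGFP- PGCLC libraries with the same number correlated with r of 0.253, 0.135, 0.200 and 0.307 over genes (other numbers -0.0743 on average), so these numbers pair the samples, and -0.0105 to 0.160 in the other pairs of groups. Cells were kept with 4000 or more genes, 10000 or more reads and at most 5% mitochondrial reads. Wells held 1 sorted cell and doublets were not called. Clusters were made with Seurat 5.3.0 (20 components, resolution 0.8), and positions are those of GENCODE on GRCm38. The labels and the methods differ on the number of cells per rOvary. Single-cell allelic ratios were not used here.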

Additional observations from a re-analysis of the deposited data

Results flagged for a closer look

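Of 40 sets of 4 libraries (10 genes in 4 groups), 3 held a library that stood apart from the other 3 by Dixon's test at the 95% level, where chance gives about 2. For *Ccnb3* in ESCs, library 4 was at a normalized count of 1.13, which is 1 read, with the other libraries at 0. For *Ccna1* in EpiLCs, library 2 was at 5.93 and the others at 11.1 to 11.9. For *Cdkn1b* in EpiLCs, library 3 was at 699 and the others at 851 to 859. The *Cdkn1b* library lay on the side away from ESCs and PGCLCs.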

How the results depend on the processing

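Of 262 counts of called genes under the alternatives, 256 stayed within 1.5 times the main count and 6 did not. Of the log2 differences of the 10 genes, 1228 kept their call and direction, 40 lost the call, 17 gained it and 5 changed sign. Of the single-cell values, 156 stayed within the counting interval and 130 left it, 28 of these within lane 2. Requiring an absolute log2 fold change above 1 left 14, 16, 19, 3 and 11 of the 67 list genes (34, 40, 45, 18 and 30 without it) for EpiLCs against ESCs, XGFP+ PGCLCs against EpiLCs, XGFP- PGCLCs against EpiLCs, XGFP- against XGFP+ PGCLCs and XGFP+ PGCLCs against ESCs, and 3 of the 10 genes between the PGCLC groups (6 without it), by the construction of that rule. Leaving out each library gave, in the same order of comparisons, 5 to 7, 8 to 8, 9 to 10, 4 to 6 and 6 to 7 of the 10 genes and 31 to 34, 38 to 41, 42 to 46, 12 to 19 and 28 to 31 of the list. With the replicate block, 5 of the 10 genes (without *Ccnd3*) and 21 of the list were called between the PGCLC groups. With the block and these 2 groups alone, an alternative added after seeing the data, 6 and 24 were called. The share of all genes called under each of these settings is not given here, so nothing is read from the counts about the 10 genes or the list. In the other comparisons the block added *Ccne2* and *Cdkn2a* between EpiLCs and ESCs and *Cdkn2a* between XGFP- PGCLCs and EpiLCs, as did leaving out XGFP- library 3 (*Ccne2*), XGFP- library 1 (*Cdkn2a*) and XGFP- library 2 or 4 or ESC library 3 (*Cdkn2a*, XGFP- PGCLCs against EpiLCs). The log2 difference of *Ccnb3* between the PGCLC groups, 0.02, changed sign to -0.021 with a pseudocount of 10, -0.11 by edgeR, -0.087 by DESeq2, and to -0.39 without XGFP+ library 3 and -0.16 without XGFP- library 2, in a range of -0.39 to 0.20 over left-out libraries. *Ccnb3* between XGFP+ PGCLCs and ESCs lost its call with a pseudocount of 10 (0.66). For the other changes the cause was not tested. With 10 principal components the *Ccnb3* mean of the meiotic germ cell-like cluster was 685 CPM (668 with 20). In 5 of the 10 genes the mean was higher in XGFPhigh than in XGFPlow cells, and in 4 within lane 2, within lane 3, from summed reads and after thinning to 100000 reads (which left out 1 ESC and turned *Ccne2*). Alternatives for the *Ccnb3* allelic ratio were not run, since a 0 can mean no allelic reads. Levels were near the floor for *Ccnb3*, *Ccna1* and *Ccnd2* in bulk ESCs, and for *Cdkn2a* and *Ccna1* in single cells. The part of depth in these low values was not tested. *Cdkn1b* was also low in single cells, but in ESCs it stood at 0.936 CPM there against 33.99 CPM in bulk. The cause of that gap was not tested.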
